A study of Mus musculus with 6 samples.

Results

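The 10 genes described here, Ctgf, Cyr61, Ankrd1, Amotl1, Amotl2, Lats2, Yap1, Wwtr1, Tead1 and Tead4, belong to the Hippo pathway or are widely used readouts of its coactivators YAP and TAZ. They were taken by symbol from the 22026 gene symbols listed for each sample, Ctgf and Cyr61 under these older symbols (now Ccn2 and Ccn1). All 10 were found. RNAseq was carried out on mouse choroid endothelial cells (ECs) at postnatal day 5 (P5, while the retina is still differentiating) and postnatal day 30 (P30, visual maturity). Each age had 3 isolations, each of them pooled from 7 animals. The paper describes the P30 animals as 129/B6 mice of both sexes and does not state strain or sex separately for the P5 animals. No sample carried a mutation, transgene or drug treatment in its labels. Every animal had received an antibody to VE-Cadherin by which the ECs were sorted from digested RPE/choroid tissue. The paper gives a smaller antibody dose at P5 than at P30, and hypothermia as the anaesthesia at P5. This handling cannot be told apart from age. The question of the comparison was how the expression profile of choroid ECs differs before and after the outer retina matures.

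As background, the Hippo pathway is a kinase cascade that holds cell number and tissue size in check. The kinases STK3 and STK4 (MST2 and MST1), with the scaffold SAV1, activate LATS1 and LATS2 with their MOB1 partners. These phosphorylate YAP and TAZ (the product of Wwtr1) and so keep them in the cytoplasm, where angiomotins can also bind them. When the cascade is quiet, YAP and TAZ enter the nucleus and bind the DNA-binding TEAD factors. The complex switches on genes such as Ctgf, Cyr61 and Ankrd1 and, as negative feedback, Lats2 and Amotl2. In ECs, YAP and TAZ are known to respond to cell contact, stretch and flow and to take part in vessel sprouting. Most of this control acts on proteins, and RNA levels do not measure it.

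The values were FPKM as the authors calculated and deposited them, which are fragments scaled by transcript length and between samples by the upper quartile. Read counts were not used here, so sequencing depth is unknown and neither counting errors nor detection limits are given. Differences between ages were taken on the scale of log2(FPKM + 1) and tested with limma, a linear model with a shared estimate of spread, over the 12481 genes whose mean FPKM reached 5 at P5 or at P30. A gene was called at an adjusted p (Benjamini-Hochberg over all genes tested) under 0.01 with at least a 2-fold difference in mean FPKM + 1. A looser rule, an adjusted p under 0.05 of any size, was used to describe smaller differences, and "rose" and "fell" below refer to genes past this rule. Values after ± are SD over the 3 isolations of an age. The 7 endothelial marker genes examined ranged in FPKM from 1007 to 3069 over the P5 isolations and from 1078 to 5778 over those of P30. The median SD of log2(FPKM + 1) between isolations was 0.13 at P5 and 0.26 at P30.

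Of the 10 genes, Ctgf alone was called higher at P30 and 0 were called lower, with 9 tested and Ankrd1 listed at an FPKM of 0 throughout. Over all genes tested, 5.89% were called higher at P30 and 5.82% lower. Under the looser rule Ctgf, Cyr61 and Lats2 rose and Amotl1 and Tead1 fell, which makes 3 higher against 16.1% of all genes tested and 2 lower against 22.4% (5 in all, against 38.5%). In these 5 genes the 3 isolations of each age did not overlap, and in Amotl2, Yap1, Wwtr1 and Tead4 they did. Isolations did not overlap, with P30 above, in 22.0% of all genes tested and, with P30 below, in 33.0%, or 55.1% in all. The 9 genes were not tested as a group, and their median difference was -0.01 against -0.10 over all genes tested. In bulk samples, fewer cells that express a gene and less of its RNA per cell cannot be told apart.

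**Figure D1:**
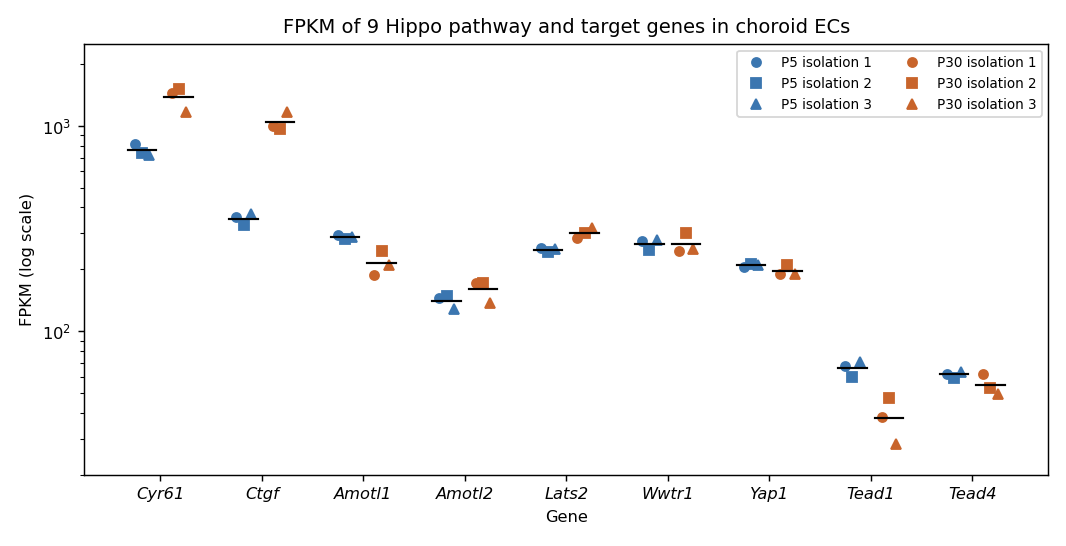
FPKM (log axis) of 9 of the 10 genes in each isolation, with P5 in blue, P30 in orange, a marker shape for each replicate number and a bar at the mean of 3 isolations. Cyr61 and Ctgf are the highest genes and move up clearly at P30, Tead1 moves down, and Yap1 and Wwtr1 stay at like levels; Ankrd1 was listed at 0 and is not drawn.

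**Figure D2:**
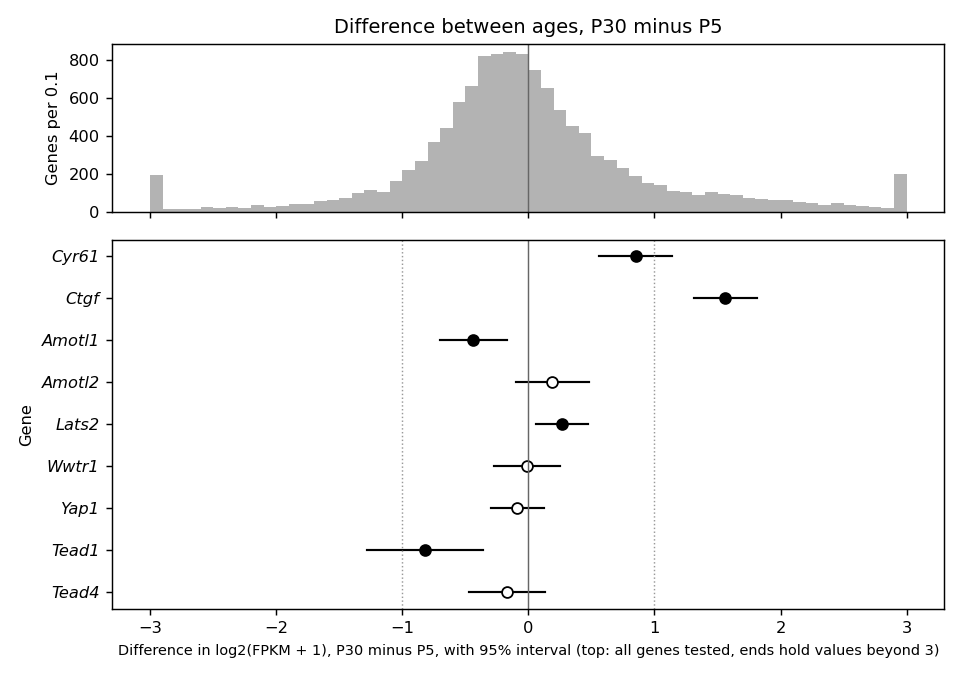
Difference in log2(FPKM + 1), P30 minus P5, of each gene with its 95% interval from limma (below) and the same difference over all 12481 genes tested (above, genes per bin of 0.1, end bins holding values beyond 3). Filled points passed an adjusted p of 0.05, dotted lines mark a 2-fold difference, and Ctgf lies wholly beyond it.

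Ctgf (chromosome 10, 24315248 to 24318489 of mm9, forward strand) encodes connective tissue growth factor, a secreted matricellular protein that binds integrins and growth factors. At P5 its FPKM was 358, 329 and 370.3 in replicates 1, 2 and 3, and at P30 it was 1002, 959 and 1170.5, in the order of replicates that is kept throughout. The ages were far apart. The mean rose 2.96-fold, from 352 ± 21.0 to 1044 ± 112 (a log2 fold change of 1.56 with SE 0.11, limma adjusted p = 0.000168). The exons of Ctgf overlap an antisense transcript, Gm15270, on the opposite strand. The library kit is not stated to keep strand, so reads of the overlap could not be separated.

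Cyr61 (chromosome 3, 145309935 to 145312949, reverse strand) encodes the closely related secreted protein CCN1, which is required for normal vessel formation. Its FPKM was 814, 739.5 and 720.3 at P5, and 1446, 1508 and 1165 at P30. The ages did not overlap, and P30 replicate 3 was nearest to P5. The mean rose 1.81-fold, from 758 ± 49.7 to 1373 ± 183 (a log2 fold change of 0.85 with SE 0.12, limma adjusted p = 0.00228), which is under the 2-fold limit. With quantile normalization the log2 fold change was 0.57 (limma adjusted p = 0.004), and over the alternatives tried the adjusted p lay between 0.000992 and 0.0164. The ratio of Cyr61 to Ctgf, which does not depend on the scaling between samples, was 2.28, 2.25 and 1.95 at P5 and 1.44, 1.57 and 1.0 at P30. Thus Cyr61 was about as abundant as Ctgf in P30 replicate 3 and more abundant in the other isolations. The mean ratio was 2.16 ± 0.184 at P5 and 1.34 ± 0.303 at P30 (two-sided exact permutation test, p = 0.1, the smallest that 3 isolations against 3 allow).

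Ctgf and Cyr61 are members of the CCN family of secreted matricellular proteins. Of the other 4 members, Nov (CCN3) had an FPKM of 80.2, 83.9 and 75.8 at P5 and 69.7, 83.3 and 79.8 at P30, which overlapped (log2 fold change -0.05, 95% interval -0.32 to 0.23, limma adjusted p = 0.772). Its sign turned with another scaling (0.04 with median ratio scaling). Wisp1 (CCN4) was low, with 14.2, 11.9 and 21.2 at P5 and 4.35, 12.5 and 6.70 at P30, and the ages overlapped. Its log2 fold change was -0.99 (95% interval -1.91 to -0.06, limma adjusted p = 0.0841), which did not pass the looser rule. Wisp2 was listed at 0 in 5 isolations and at 3.68 in P30 replicate 1. Wisp3 was listed at 1.07 in P5 replicate 1, at 1.82 in P30 replicate 2 and at 0 in the others. Neither entered the fit. Summed over the 6 family genes, the FPKM was 1207 ± 54.0 at P5 and 2504 ± 74.1 at P30, nearly all of it from Cyr61 and Ctgf.

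Ctgf and Cyr61 are also known as early response genes, which cells switch on within minutes of serum, stretch or dissociation. A list of 8 other early response genes (Fos, Fosb, Jun, Junb, Egr1, Atf3, Ier2 and Dusp1) was read beside them. All 8 were called higher at P30, against 5.89% of all genes tested, with a median log2 fold change of 2.24. Fos, which encodes a subunit of the AP-1 factor, had an FPKM of 2905, 1796 and 1709 at P5 and 9471, 13405 and 7793 at P30. Egr1, a zinc finger factor, had 2550.0, 1694 and 1599.7 at P5 and 7585, 10804 and 8413 at P30. Their summed FPKM was between 7543 and 11799 at P5 and between 37739 and 48884 at P30. At P5 all 8 were highest in replicate 1, as was Cyr61, while Ctgf was highest in replicate 3. At P30 the order differed among the 8 genes. Fos, Fosb and Atf3 were lowest in replicate 3, as was Cyr61, and Egr1 was lowest in replicate 1. Jun, Junb, Ier2 and Dusp1 were highest in replicate 3, as was Ctgf. The part of this response in the difference of Ctgf and Cyr61 was not tested.

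**Figure D3:**
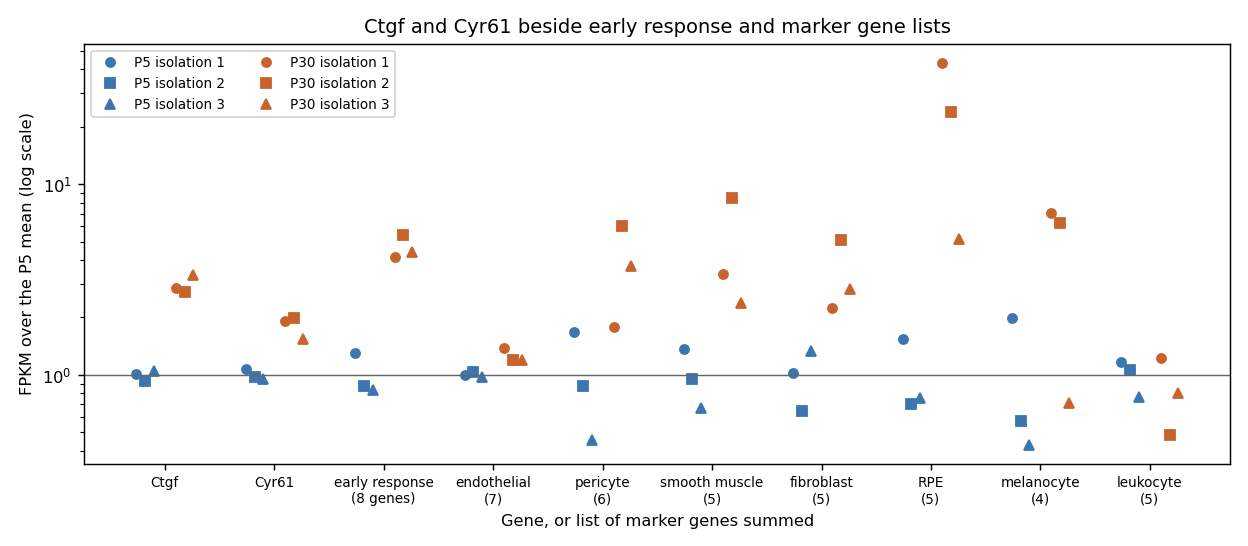
FPKM of Ctgf and Cyr61, and summed FPKM of early response and cell type marker lists, in each isolation over the P5 mean (log axis), with P5 in blue and P30 in orange. The early response sum lies above every P5 isolation at P30 and is 4.64-fold higher on average, and the RPE sum differs widely between P30 isolations.

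Of the 7 endothelial marker genes, Emcn, Kdr and Tie1 rose and Cdh5 fell under the looser rule, against 16.1% and 22.4% of all genes tested, and the most abundant after Emcn, Egfl7, did not pass. Cdh5, which encodes VE-Cadherin, the protein used for the sort, had an FPKM of 2878, 3069 and 2967 at P5 and 1943, 1874 and 1839.8 at P30 (a log2 fold change of -0.66 with SE 0.09, limma adjusted p = 0.00205). Emcn, which encodes the sialomucin endomucin, had 3042, 3039 and 2925 at P5 and 5778, 5676 and 5116 at P30 (a log2 fold change of 0.88 with SE 0.11, limma adjusted p = 0.00106). With quantile normalization the log2 fold change was -0.01 for Emcn, -0.11 for Kdr and -0.11 for Tie1, and the calls of Kdr and Tie1 were also lost without any 1 isolation other than P30 replicate 2. RNA of several other cell types was also higher at P30, and its part in the differences of these genes was not tested. The paper judged contaminating non-ECs to be very low, from Best1, NG2 (Cspg4), SM-MHC (Myh11) and CD45 (Ptprc). Here Best1, too low to be tested, had a mean FPKM of 1.72 at P5 and 4.41 at P30. Cspg4 had 27.5 and 50.2, and its isolations overlapped between ages. Myh11 had 6.80 and 69.8 and was called higher, and Ptprc had 27.1 and 7.82 and was called lower. The counts of marker genes that rose or fell stand against the same 16.1% and 22.4%. Summed over 5 marker genes of the RPE, which include Ttr and Rgr, the FPKM was between 55.8 and 122.6 at P5 and between 410.4 and 3435 at P30, with Rpe65 listed at 0 in at least 1 P5 isolation and 4 of the 4 genes tested higher under the looser rule. The 6 pericyte genes, which include Rgs5 and Pdgfrb, summed to between 467.5 and 1709 at P5 and between 1814 and 6160 at P30, and 3 of 6 rose. The calls of Rgs5 and Pdgfrb were lost without replicate 2 or 3 of either age (limma adjusted p from 0.0514 to 0.113). The 5 smooth muscle genes, which include Acta2 and Tagln, summed to between 85.0 and 173 at P5 and between 302 and 1064 at P30. Cnn1 was listed at 0 in at least 1 P5 isolation, and 4 of the 4 tested rose. The calls of Acta2 and Tagln were lost without P5 replicate 2 or 3 (limma adjusted p from 0.0663 to 0.0878). The 5 fibroblast genes, which include Dcn and Col1a2, summed to between 405 and 832 at P5 and between 1405 and 3175 at P30, and 3 of 5 rose. Ttr, Rgr and Dcn stayed past the looser rule with any 1 isolation left out.

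The melanocyte genes, which include Dct and Tyrp1, overlapped between ages (58.6 to 271 and 96.4 to 960.1), and 0 of 4 passed the looser rule. The leukocyte genes, which include Csf1r and Lyz2, overlapped as well (488 to 738 and 308 to 781), and 2 of 5 fell, against 22.4% of all genes tested. Among the P30 isolations, replicate 3 had the least RPE RNA, the highest Ctgf and the lowest Cyr61. Replicate 2 had the most pericyte, smooth muscle and fibroblast RNA, the lowest Ctgf and the highest Cyr61. Replicates 1 and 2 were close, with a Ctgf FPKM of 1002 and 959 and a Cyr61 FPKM of 1446 and 1508. A link of these orders with other cell types was not tested.

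Ankrd1 (chromosome 19, 36186455 to 36194334, reverse strand) encodes a muscle ankyrin repeat protein and is a common YAP readout in cultured cells. It was listed at an FPKM of 0 in all 6 isolations. Whether this 0 means absence cannot be told, since read counts were not used and detection limits are not given. Of 79 ribosomal protein gene symbols, 1 was also listed at 0 in all isolations. Whether that gene is expressed in these cells was not examined, so its 0 does not settle the question. No comparison of ages could therefore be made for Ankrd1.

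The feedback genes moved little. Lats2 (chromosome 14, 58260914 to 58377225, reverse strand), the kinase that restrains YAP and TAZ, had an FPKM of 254, 244 and 251 at P5 and 285, 300.3 and 318 at P30. The P30 isolations all exceeded the P5 isolations, by a small margin. The mean rose 1.21-fold, from 249.6 ± 5.34 to 301.1 ± 16.3 (a log2 fold change of 0.27 with SE 0.09, limma adjusted p = 0.0464). This passed the looser rule narrowly and was lost with quantile normalization (log2 fold change 0.18, limma adjusted p = 0.168) and without any 1 of the P5 isolations or of P30 replicates 2 and 3 (adjusted p from 0.0671 to 0.168). Exons of Lats2 overlap those of Xpo4 on the same strand, so some reads may belong to either gene. Amotl2 (chromosome 9, 102619002 to 102635748, forward strand), an angiomotin that holds YAP at cell junctions, had 145, 148 and 128 at P5 and 172, 172 and 137 at P30. P30 replicate 3 lay within the P5 range, and the difference was within the spread (log2 fold change 0.19, 95% interval -0.10 to 0.48, limma adjusted p = 0.262).

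Promoter windows were read to show where the TEAD recognition letters lie in target genes and in the coactivator genes. RefSeq promoter entries were found for 7 of the 10 genes. Ctgf, Tead1 and Tead4 had no entry. The 7 genes had 9 entries, with more than 1 for Lats2 and Wwtr1. The 250 bases before each start were searched on both strands for GGAATG, the core TEAD letters. At least 1 window held it in 5 of the 7 genes (Cyr61, Ankrd1, Amotl2, Yap1 and Wwtr1). The letters were in 12.6% of 32536 single promoter windows of the same length, a share per window and not per gene. In the annotation, the windows of Amotl1 and Amotl2 and 1 of Wwtr1 overlapped exons of the same gene. Both windows of Lats2 lay in its introns. The AP-1 letters TGANTCA, present in 6.7% of all windows, and the CArG box bound by SRF, present in 1.5%, were found in 0 of the 7. A match is a description of letters and shows no binding. Of the 2 targets shown, Cyr61 was abundant and Ankrd1 was listed at 0. Their windows and those of both coactivators are given 5′ to 3′ on the strand of the gene. In these windows, GGAATG or its reverse complement CATTCC is in capitals. All matched mm9 exactly at 1 place, outside annotated genes and on the reverse strand, at chr3:145312950-145313199 (Cyr61), chr19:36194335-36194584 (Ankrd1), chr9:8004597-8004846 (Yap1) and chr3:57379833-57380082 (Wwtr1).
Cyr61: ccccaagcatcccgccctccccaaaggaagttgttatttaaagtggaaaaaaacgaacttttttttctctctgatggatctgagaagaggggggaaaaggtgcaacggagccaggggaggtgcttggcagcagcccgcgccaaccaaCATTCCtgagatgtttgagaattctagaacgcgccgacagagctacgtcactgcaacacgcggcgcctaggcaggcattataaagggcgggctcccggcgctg
Ankrd1: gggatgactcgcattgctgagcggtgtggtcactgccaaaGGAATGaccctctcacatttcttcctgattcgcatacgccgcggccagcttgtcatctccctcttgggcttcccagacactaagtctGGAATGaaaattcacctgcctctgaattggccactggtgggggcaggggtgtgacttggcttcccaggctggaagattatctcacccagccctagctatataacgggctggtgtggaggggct
Yap1: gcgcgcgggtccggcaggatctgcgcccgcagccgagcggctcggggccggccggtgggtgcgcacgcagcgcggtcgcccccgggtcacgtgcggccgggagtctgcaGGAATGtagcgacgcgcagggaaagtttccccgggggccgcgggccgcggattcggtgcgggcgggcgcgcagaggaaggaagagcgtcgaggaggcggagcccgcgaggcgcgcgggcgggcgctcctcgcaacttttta
Wwtr1: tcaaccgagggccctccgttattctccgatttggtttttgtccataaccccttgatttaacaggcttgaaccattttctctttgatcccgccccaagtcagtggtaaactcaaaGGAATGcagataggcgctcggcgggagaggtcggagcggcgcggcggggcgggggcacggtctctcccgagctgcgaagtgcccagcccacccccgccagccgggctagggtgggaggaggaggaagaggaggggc
Counted from -1 for the base next to the start, the letters began at -103 in Cyr61, at -210 and -123 in Ankrd1, at -141 in Yap1 and at -136 in Wwtr1. The window of Ankrd1 thus held the letters more often than that of Cyr61.

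The coactivators themselves showed no difference between ages beyond their spread. Yap1 (chromosome 9, 7931999 to 8004596, reverse strand) had an FPKM of 206, 213 and 210.2 at P5 and 189.8, 211 and 191 at P30. Of the P30 isolations, replicate 2 lay within the P5 range and the other two just below it. The log2 fold change was -0.09 (95% interval -0.30 to 0.12, limma adjusted p = 0.460). Exons of Yap1 overlap those of RP23-349N15.1 on the opposite strand, so reads of the overlap could not be separated. Wwtr1 (chromosome 3, 57259571 to 57379832, reverse strand), which encodes TAZ, had 275, 247 and 277 at P5 and 245, 300.3 and 252 at P30, with full overlap. Its log2 fold change was -0.01 (95% interval -0.27 to 0.25, limma adjusted p = 0.962), and the sign turned with median ratio scaling (0.08). Differences within these intervals cannot be told from none. Wwtr1 made up 57.2%, 53.8% and 56.9% of the summed FPKM of the pair at P5 and 56.4%, 58.7% and 56.9% at P30, so TAZ RNA was slightly more abundant than YAP RNA in every isolation (two-sided exact permutation test between ages, p = 0.5).

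Among the TEAD factors, which carry YAP and TAZ to DNA, Tead1 fell and the others did not pass the looser rule. Tead1 (chromosome 7, 119822832 to 120050319, forward strand) had an FPKM of 67.5, 59.6 and 71.15 at P5 and 38.0, 47.1 and 28.2 at P30. All P30 isolations were below all P5 isolations, and they differed among themselves by up to 1.67-fold, the widest spread of the 9 genes tested. The mean was 1.75-fold lower at P30, 37.8 ± 9.44 against 66.1 ± 5.91 (a log2 fold change of -0.82 with SE 0.20, limma adjusted p = 0.0157). Without P5 replicate 1 or 3 the adjusted p was 0.0567 or 0.068. Tead4 (chromosome 6, 128174306 to 128250841, reverse strand) had 62.0, 59.2 and 63.6 at P5 and 62.2, 53.0 and 49.3 at P30. P30 replicate 1 lay within the P5 range (log2 fold change -0.17, 95% interval -0.47 to 0.13, limma adjusted p = 0.322).

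Tead2, which is not one of the 10 genes, was the most abundant TEAD RNA, with 168, 182 and 151 at P5 and 319, 222 and 153 at P30 (log2 fold change 0.41, limma adjusted p = 0.223). Tead3 was lowest, between 4.76 and 8.23 at P5 and between 5.09 and 16.9 at P30. As a share of the summed FPKM of the 4 factors, Tead1 was 22.1%, 19.5% and 24.4% at P5 and 9.0%, 13.9% and 11.7% at P30. The mean share fell by 10.48 percentage points, without overlap (two-sided exact permutation test, p = 0.1, the smallest possible). Tead2 took 55.0%, 59.5% and 52.0% at P5 and 75.2%, 65.5% and 63.3% at P30, also without overlap (two-sided exact permutation test, p = 0.1). The summed FPKM of the 4 was 301 ± 8.2 at P5 and 335 ± 91.5 at P30 and overlapped (two-sided exact permutation test, p = 0.7). At P30 it ranged from 241 in replicate 3 to 424 in replicate 1.

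**Figure D4:**
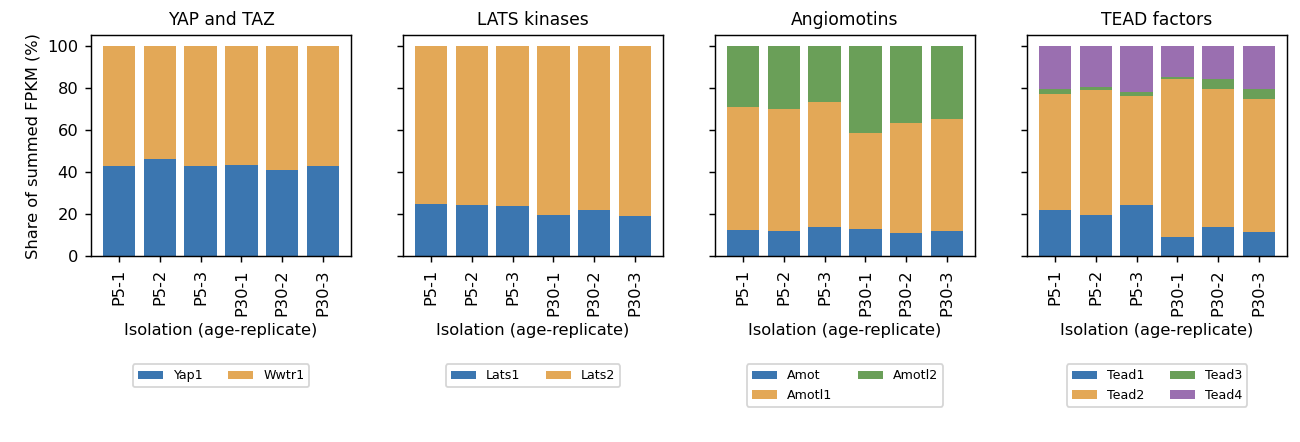
Share of the summed FPKM (percent, bars from 0) that each paralog takes in its group, for each isolation of P5 and P30. Yap1 and Wwtr1 keep similar shares, while the shares of Tead1 and Amotl1 are lower, and those of Tead2 and Amotl2 higher, at P30.

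Amotl1 (chromosome 9, 14346410 to 14447973, reverse strand), the angiomotin family member with the most RNA here, had an FPKM of 295, 282 and 287 at P5 and 188, 244 and 209.6 at P30. Each P30 isolation was below each P5 isolation. The mean fell from 288 ± 6.25 to 214 ± 28.5 (a log2 fold change of -0.44 with SE 0.12, limma adjusted p = 0.0222), and without any 1 P5 isolation the adjusted p was between 0.071 and 0.0769. Amot was lower in level, between 59.7 and 66.9 at P5 and between 46.5 and 54.3 at P30 (log2 fold change -0.30, limma adjusted p = 0.0928). Of the summed FPKM of the 3 angiomotins, Amotl2 took 28.8%, 30.1% and 26.5% at P5 and 41.5%, 36.7% and 34.9% at P30. The mean share was 9.19 percentage points higher at P30, without overlap (two-sided exact permutation test, p = 0.1). Lats2 likewise took 75.8% ± 0.52 of the LATS RNA at P5 and 79.6% ± 1.55 at P30, again without overlap (two-sided exact permutation test, p = 0.1), and Lats1 itself, between 77.8 and 83.5 at P5 and between 69.5 and 85.6 at P30, overlapped between ages.

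The rest of the pathway was read from a list of 36 Hippo genes that holds 7 of the 10 genes. Of the 32 tested, 0 were called with the 2-fold limit. Under the looser rule 4 rose, 9 fell and 19 did not pass, against 16.1% and 22.4% of all genes tested, and the median log2 fold change was -0.20 against -0.10. Without the 7 genes, 3 of 25 rose and 7 fell. The 9 that fell included the kinase Stk3 (MST2), with 109, 104 and 104 at P5 and 74.5, 76.7 and 77.8 at P30 (a log2 fold change of -0.46 with SE 0.10, limma adjusted p = 0.00917). The others were Stk4 (-0.38), the MOB1 genes listed as Mobkl1b (-0.53) and Mobkl1a (-0.66), the kinases Taok1 (-0.45) and Map4k4 (-0.73), the atypical cadherin Dchs1 (-0.56), and Amotl1 and Tead1. Stk4 passed narrowly (limma adjusted p = 0.049). Its call was lost with quantile normalization (limma adjusted p = 0.0724) and with median ratio scaling (limma adjusted p = 0.0833). It was also lost without any 1 P5 isolation and without P30 replicate 1 or 3 (limma adjusted p from 0.0738 to 0.156).

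Map4k4, a kinase that can also phosphorylate LATS, was the most abundant of the list at P5, with 526, 528 and 524 against 345, 367 and 248 at P30 (limma adjusted p = 0.00879). The 4 that rose were Lats2, Wtip (0.44), Vgll4 and Ptpn14. Vgll4, which competes with YAP for TEAD binding, had 235, 204 and 217 at P5 and 337, 349 and 401 at P30 (a log2 fold change of 0.72 with SE 0.11, limma adjusted p = 0.00236). Ptpn14, a phosphatase that binds YAP and is itself a known YAP target, had 153, 141 and 131 at P5 and 269, 247 and 218 at P30 (a log2 fold change of 0.78 with SE 0.12, limma adjusted p = 0.0024). Both were apart between ages in every isolation. Taok2, among the 3 most abundant of the list over the 6 isolations, had 298.8, 298.2 and 310.1 at P5 and 322, 259.5 and 269 at P30 and did not pass. Vgll1 and Vgll2 were listed at 0 throughout. The calls of Mobkl1b, Mobkl1a, Taok1 and Wtip were lost without any 1 P5 isolation, and that of Wtip also without P30 replicate 2 or 3. Without P30 replicate 2, 14 Hippo genes fell, and without P5 replicates 1, 2 or 3 it was 3, 4 and 3.

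A list of 22 YAP and TAZ target genes, written from background knowledge of a target signature used in cancer, held 5 of the 10 genes. Of its 21 tested genes 4 were called higher at P30 and 0 lower, and 13 rose and 1 fell under the looser rule, against 16.1% and 22.4% of all genes tested. The median log2 fold change was 0.81 against -0.10. Without the 5 genes, 3 of 17 were called higher, 10 rose and 1 fell, with the same median of 0.81. In the 17, the isolations were apart with P30 above in 11 genes, against 22.0% of all genes tested, and with P30 below in 1, against 33.0%. Without P5 replicate 2, 7 of the 21 rose and without P5 replicate 3, 8.

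The largest log2 fold changes in the target list were those of Nt5e and Myof, whose order turned with a pseudocount of 5 (2.68 and 2.73). Nt5e encodes CD73, the ectoenzyme that makes adenosine. Its FPKM was 4.57, 4.16 and 3.32 at P5 and 49.2, 44.7 and 65.8 at P30 (a log2 fold change of 3.42 with SE 0.23, limma adjusted p = 0.00016). Myof, which encodes the membrane repair protein myoferlin, had 13.6, 13.2 and 7.46 at P5 and 98.7, 115 and 93.5 at P30 (a log2 fold change of 3.10 with SE 0.24, limma adjusted p = 0.000218). Foxf2, a forkhead transcription factor, had 148, 144 and 95.6 at P5 and 268, 254.9 and 361 at P30 (a log2 fold change of 1.19 with SE 0.20, limma adjusted p = 0.00434). In these 3 genes the P30 isolations all exceeded the P5 isolations. At P30, Nt5e and Foxf2 were highest in replicate 3, as was Ctgf, and Myof was highest in replicate 2. Replicate 2 also had the most pericyte, smooth muscle and fibroblast RNA, and a link with Myof was not tested. Foxf2 was not called without any 1 of the P5 isolations.

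Several other targets rose by less or varied more. Crim1, a membrane protein that binds growth factors, had 151, 127 and 135 at P5 and 274, 299 and 242 at P30 (a log2 fold change of 0.97 with SE 0.12, limma adjusted p = 0.0011). Axl (1.17), F3 (2.12), Gadd45a (0.87) and Nuak2 (1.08) also rose under the looser rule. These 4 calls were lost with single isolations left out, those of Gadd45a without any 1 P5 isolation, of Axl without P5 replicate 2 or 3 or P30 replicate 2 or 3, of F3 without any 1 isolation but P30 replicate 3, and of Nuak2 likewise. The limma adjusted p then reached 0.0848, 0.1, 0.106 and 0.122. F3 was listed at 0 in P5 replicate 2, and its log2 fold change was 3.39 with a pseudocount of 0.1 (limma adjusted p = 0.0747) and 1.10 with a pseudocount of 5. Axl, F3 and Gadd45a were highest in P30 replicate 2, which also had the most pericyte, smooth muscle and fibroblast RNA. A link between these was not tested. Igfbp3, a secreted binding protein of insulin-like growth factors, was by far the most abundant of the list, with 5546, 4462 and 4769 at P5 and 8597, 6899 and 8048 at P30 (a log2 fold change of 0.67 with SE 0.14, limma adjusted p = 0.00966), but with quantile normalization its log2 fold change was -0.23 (limma adjusted p = 0.277). Without P5 replicate 2 its adjusted p was 0.0559 (limma). Fjx1, a secreted regulator of growth, fell from 16.0, 24.2 and 20.1 to 9.94, 9.82 and 11.8 (a log2 fold change of -0.86 with SE 0.23, limma adjusted p = 0.0221), a call lost without P5 replicate 2 or 3 (limma adjusted p = 0.116 and 0.0804). Ccdc80, Rbms3, Arhgef17, Tgfb2, Asap1, Dock5 and Amotl2 did not pass, with log2 fold changes between -0.13 and 0.81.

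**Figure D5:**
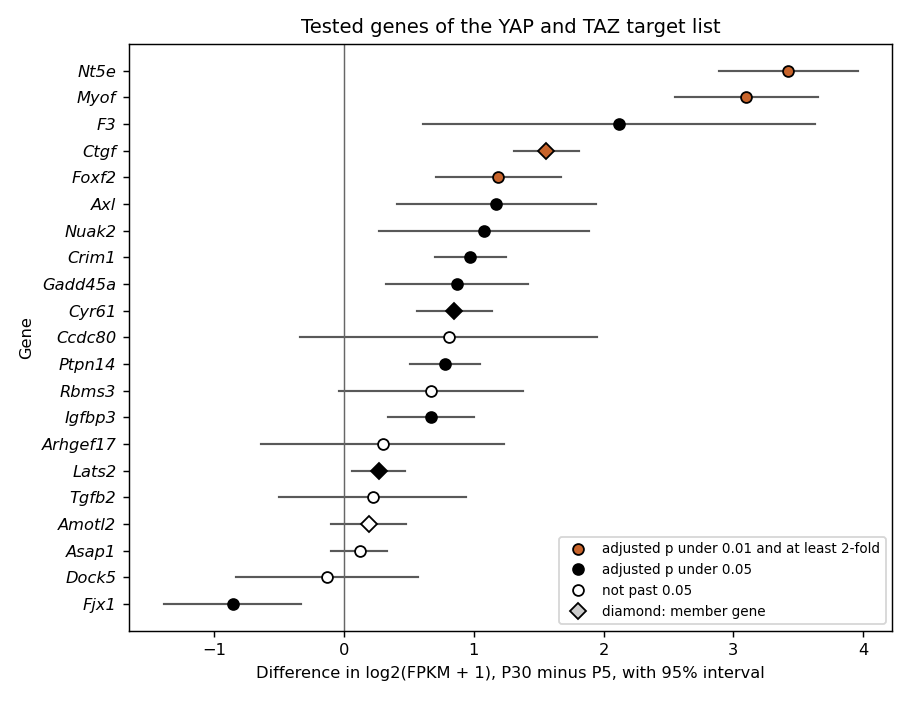
Difference in log2(FPKM + 1), P30 minus P5, with its 95% interval from limma, for the 21 tested genes of the target list, with diamonds for genes among the 10. Nt5e and Myof lie farthest to the right at 3.42 and 3.10, and Fjx1 is the one gene past the looser rule on the left.

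On the FPKM scale, which is per length of transcript, Cyr61 was the most abundant of the 10 genes at both ages and stood within the top 1.11% of all gene symbols at P5 and the top 0.57% at P30. Ctgf came next, in the top 3.28% at P5 and 0.91% at P30. At P5 the order of mean FPKM went on with Amotl1, Wwtr1, Lats2, Yap1, Amotl2, Tead1 and Tead4, and the neighbours Wwtr1 and Lats2 and the neighbours Tead1 and Tead4 overlapped between isolations. At P30 it went on with Lats2, Wwtr1, Amotl1, Yap1, Amotl2, Tead4 and Tead1. There the ranges of Cyr61 and Ctgf, of Lats2 and Wwtr1, and of Amotl1 and Yap1 overlapped. Amotl1 thus stood 3rd at P5 and 5th at P30.

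Genes with the most similar pattern were found by the root mean square difference of mean-centred log2(FPKM + 1) over the 6 isolations, among the other 12480 genes tested, as a description. For Ctgf these were Ptpru (0.082), Inhbb (0.086) and Ppap2a (0.101). For Cyr61 they were Sort1 (0.057), Slc39a13 (0.059) and Gabarapl1 (0.059). For Yap1 they were Cdc42bpb (0.021), Rnf10 (0.023) and N4bp2l2 (0.025), and for Wwtr1 they were Ubr2 (0.016), Rcl1 (0.022) and Rhot1 (0.023). Ptpru, the nearest to Ctgf, had an FPKM of 296, 267 and 335 at P5 and 876, 726 and 985 at P30, and like Ctgf was highest in replicate 3 and lowest in replicate 2 at both ages.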

How the data were processed

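Choroid ECs were sorted by VE-Cadherin and their RNA sequenced on an Illumina platform, with 3 isolations at P5 and 3 at P30. Reads had been placed on mm9 by TopHat. Cufflinks, set to correct for GC content and to scale by the upper quartile, then gave the FPKM values that the authors deposited, 1 per gene symbol and isolation. CASAVA 1.8.2 and FastQC are also named in the submitters' processing notes. The gene annotation is not given in the sources used here. The upper quartile scaling makes the samples comparable only if most genes of middle and high level do not shift.

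From these values log2(FPKM + 1) was fitted by limma 3.58.1 (R 4.3.3) using lmFit and eBayes with a trend and no block. Shares and ratios were tested with exact permutation tests (scipy 1.17.1 in Python 3.11.15). Intervals are 95% intervals on the moderated degrees of freedom. Nothing says how samples with the same replicate number were related. The limma p-values set a difference between ages against the spread between isolations, which is estimated with information shared over genes. Variation between the animals of a pool is not seen. Gene positions came from GENCODE for mm9.

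The members and lists were chosen with earlier results of these data known. Named were the 10 genes, the CCN family, called genes and the 3 most abundant of the Hippo and target lists, the 2 most abundant of each marker list, and the 3 nearest in pattern. Other genes of the Hippo, target and endothelial lists were named after their values were seen. Alternatives were other pseudocounts, minimum FPKM values, quantile normalization, a replicate block, each isolation left out and, chosen after seeing the data, median ratio scaling. One marker list is not reported here.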

Additional observations from a re-analysis of the deposited data

How the results depend on the processing

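Ctgf was called higher and no other of the 10 genes was called under every alternative, and Cyr61 stayed past an adjusted p of 0.05. Over all genes tested, 396 to 849 were called higher and 291 to 754 lower when 1 isolation was left out, against 735 and 726. Of the 10 genes, 2 to 5 then passed the looser rule against 5, as Lats2, Amotl1 and Tead1 were lost. In the Hippo list 2 to 5 rose and 3 to 14 fell, and in the target list 7 to 13 rose and 0 to 1 fell. With a replicate block, 585 genes were called higher and 524 lower, 4 of the 10 genes passed the looser rule (Lats2 did not, limma adjusted p = 0.108), 2 Hippo genes rose and 0 target genes fell. Deviations of same-numbered isolations correlated at -0.062, -0.091 and -0.031, so the numbers were not taken to pair isolations. With quantile normalization the sign turned for Egfl7 (-0.05), Emcn (-0.01), Kdr (-0.11), Tie1 (-0.11) and Igfbp3 (-0.23). Median ratio scaling, and the alternatives for list counts and other named genes, were chosen after seeing the data. That scaling moved the median log2 fold change of all genes from -0.097 to -0.013, gave 869 genes higher and 624 lower, and turned Lats1 (0.03), Nov (0.04) and Wwtr1 (0.08). With 1 isolation left out, Lats1 ranged from -0.13 to 0.02, Lyz2 from -0.14 to 0.67, Nov from -0.10 to 0.03 and Wwtr1 from -0.10 to 0.05. The cause of these changes was not tested. Depth is unknown, and 3 isolations an age limit precision.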
